A study of Homo sapiens with 13 samples.

Results

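The immunoproteasome and class I peptide-loading genes were followed in HuT78 cells, an established T cell line from a patient with Sézary syndrome, a leukemic cutaneous T cell lymphoma. The group holds 10 genes of the 45744 in the deposited count table, chosen by gene name: PSMB8, PSMB9, PSMB10, PSME1, PSME2, TAP1, TAP2, TAPBP, ERAP1 and ERAP2. These genes and the gene lists used below were chosen with earlier results of these data known. Their shares, set below beside those of all genes, carry that limit. RNA sequencing was done after 72 h with chaetocin at 10 nM (4 libraries, replicates 1 to 4), F5446 at 10 nM (3 libraries, replicates 2 to 4), romidepsin at 1 µM (4 libraries, replicates 1 to 4) or the vehicle DMSO (2 libraries, replicates 1 and 4). All groups share the same cell line and time. Chaetocin is a fungal metabolite known as an inhibitor of histone H3 lysine 9 methyltransferases of the SUV39H1 type, F5446 is a code-named SUV39H1 inhibitor, and romidepsin is a histone deacetylase inhibitor in clinical use for this disease. The dose of romidepsin was not that of the other compounds. The labels do not say whether the replicates are separate cultures, so the spread behind the p-values is that between libraries and may be technical.

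Cells display fragments of their own proteins on class I major histocompatibility molecules. In the immunoproteasome, PSMB8, PSMB9 and PSMB10 take the places of the constitutive catalytic subunits PSMB5, PSMB6 and PSMB7, and PSME1 and PSME2 form the PA28 cap that opens the core particle. TAP1 and TAP2 together pump peptides into the endoplasmic reticulum, TAPBP (tapasin) holds the empty class I molecule beside that pump, and ERAP1 and ERAP2 trim the peptides there. Interferon gamma is the classical inducer of these genes, through regulators such as IRF1 and NLRC5 and through promoter elements such as the interferon-stimulated response element (ISRE).

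The core of that element, GAAA followed by NN (any bases) and another GAAA, was searched for on both strands of promoter windows taken from RefSeq (GRCh38.p14). A window runs from 250 bases before an annotated start to 50 bases from it, with the start counted as position 0. The table held 14 windows for the 10 genes. At least 1 window of 9 of the 10 genes (90.0%) held the core, against 1195 of 27305 genes in the whole table (4.38%). Counted by window, 9 of 14 (64.3%) held it, against 3.57% of all 35116 windows. The stretches with the matches are shown because they are the sequence feature that most of these genes share. Each is written 5′ to 3′ on the gene's own strand, with the match in capitals. Matches that begin with TTTC are the same core on the opposite strand.
PSMB8: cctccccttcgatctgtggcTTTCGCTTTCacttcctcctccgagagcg
PSMB10: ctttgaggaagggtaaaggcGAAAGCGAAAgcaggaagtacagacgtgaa
PSME1: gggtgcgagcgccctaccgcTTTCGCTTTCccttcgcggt
PSME2: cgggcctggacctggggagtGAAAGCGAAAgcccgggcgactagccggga
TAP1: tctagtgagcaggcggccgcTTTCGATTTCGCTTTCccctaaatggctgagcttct
TAP2: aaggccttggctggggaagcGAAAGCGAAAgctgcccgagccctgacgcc
TAPBP: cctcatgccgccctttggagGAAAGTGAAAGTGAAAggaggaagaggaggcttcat
ERAP1: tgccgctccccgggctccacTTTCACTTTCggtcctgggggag
ERAP2: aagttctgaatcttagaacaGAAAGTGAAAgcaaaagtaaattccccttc

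These stretches lie at chr6:32844023-32844071 (PSMB8, minus strand), chr16:67936842-67936891 (PSMB10, minus), chr14:24136179-24136218 (PSME1, plus), chr14:24146609-24146658 (PSME2, minus) and chr6:32853803-32853858 (TAP1, minus). The others lie at chr6:32838768-32838817 (TAP2, minus), chr6:33314063-33314118 (TAPBP, minus), chr5:96807921-96807963 (ERAP1, minus) and chr5:96876450-96876499 (ERAP2, plus). The counts themselves were made on hg19, so gene positions are not given for them. TAP1 and TAPBP each held 2 overlapping copies of the core. In PSMB10, PSME2, TAPBP and ERAP2 the matches lay within the last 30 bases before the start, in TAP2 at positions -58 to -49, and in TAP1 at -134 to -119. They touched or followed the start in PSMB8 (-4 to 5), ERAP1 (2 to 11) and PSME1 (5 to 14). PSMB9 had no match in its own window. Its start and that of TAP1 are 488 bases apart on opposite strands, and the TAP1 match lies 354 to 369 bases before the PSMB9 start. PSMB8, TAP1, ERAP1 and ERAP2 each had windows for 2 annotated starts, and only 1 of the 2 held the match.

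The other motifs were in windows of 2 to 7 of the 10 genes. The GAS element (TTCNNNGAA) was in windows of PSMB8 and TAP1, 2 of 10 genes, against 9.38% of all genes. The NF-kB motif (GGGA, NNNN and CC) was in 4 of 10, against 29% of all genes, the GC box GGGCGG in 7 of 10, against 48.3%, and CCAAT in 3 of 10, against 39.7%. In the 14 windows 0 pairs of matches of different motifs shared bases. The ISRE core was in 3 of 13 windowed genes for other parts of the core particle and its assembly, in 0 of 20 for the 19S regulator and other activators, and in 2 of 7 for class I chains and further loading factors. A match is only a run of letters, and no binding was measured.

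**Figure D1:**
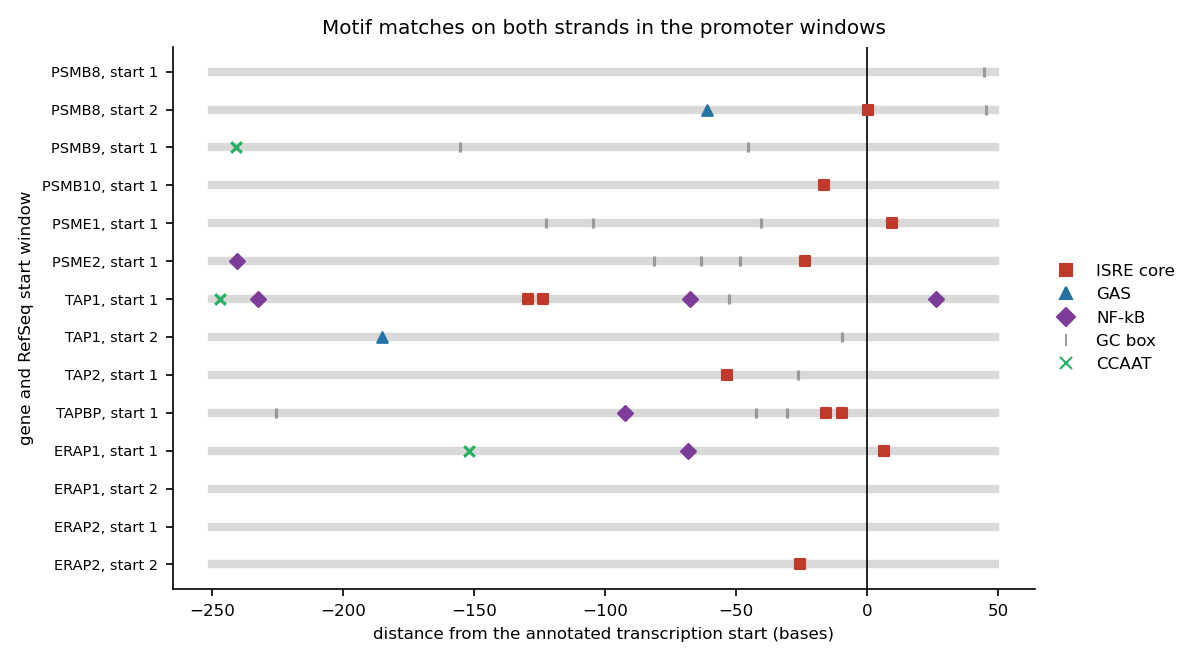
Motif matches on both strands (symbols) in the 14 RefSeq promoter windows of the 10 genes (rows, grey bars), plotted by distance in bases from each annotated start. ISRE cores (red squares) appear in windows of 9 of the 10 genes, and PSMB9 shows none.

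The libraries held between 19901052 and 30816188 counts. All 12 T cell and Sézary marker genes examined averaged at least 1 CPM in every group (CPM, counts scaled to the TMM-normalized library size). The summed T cell markers lay at 2082 to 3776 CPM with chaetocin, 2523 to 3008 with F5446, 2170 to 3049 with romidepsin and 2279 to 2465 with DMSO. The defining B cell marker PAX5 averaged 0.0155 CPM, and none of 4 monocyte markers averaged 1 CPM or more in any group (CSF1R reached 2.57 CPM in 1 library), while B cell genes MS4A1 and CD79A averaged 15.4 and 46.7 CPM. The 4 epithelial markers summed to 95.9 to 110.6 CPM with chaetocin, 106.2 to 111.9 with F5446, 108.6 to 133.8 with romidepsin and 95.7 to 114.9 with DMSO. The 5 fibroblast markers summed to 23.0 to 33.0 CPM with chaetocin, 17.3 to 22.1 with F5446, 19.2 to 27.2 with romidepsin and 18.2 to 21.5 with DMSO, so every chaetocin library was above those of F5446 and DMSO. Of these 5 genes COL1A1 (20.6 CPM) and COL3A1 (1.81 CPM) averaged at least 1 CPM over the libraries, while the defining markers COL1A2 and DCN averaged 0.0149 and 0.00335 CPM. The part of these markers in the results was not tested. The share of counts from genes of the mitochondrial genome was 8.75 to 12.7% where the replicate number was 1 or 2 and 5.22 to 8.90% where it was 3 or 4, apart from 15.9% in chaetocin replicate 3. Differences within these sets of replicate numbers, and values without chaetocin replicate 3, are therefore given beside the pooled ones. Each set holds a single DMSO library.

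All 10 genes passed the filter on low counts that left 17252 genes for testing. Scaled to exon length (from GENCODE release 29, another release than the counts), TAPBP had the highest level over the 13 libraries, at 114.2 ± 10.3 CPM per kb (SD), followed by PSMB9 at 111.9 ± 22.1. PSME1 followed at 82.5 ± 12.3, TAP1 at 63.6 ± 15.5 and PSMB8 at 55.9 ± 12.6 CPM per kb. ERAP1 (21.7 ± 1.56), PSME2 (20.8 ± 3.85), TAP2 (17.6 ± 1.57) and ERAP2 (14.1 ± 2.13) were lower, and PSMB10 was the lowest at 9.17 ± 2.25 CPM per kb. Neighbours in this order were not all separate. TAPBP exceeded PSMB9 in 8 of 13 libraries, TAP1 exceeded PSMB8 in 9, and ERAP1 exceeded PSME2 in 9. PSMB8 stood above ERAP1, TAP2 above ERAP2 and ERAP2 above PSMB10 in all 13. PSMB10 was therefore below PSMB8 and PSMB9 in CPM per kb in every library. In GENCODE release 29 PSMB10 shares 644 of its 1853 exon bases with AC040162.1 on the same strand. TAP2 likewise shares 2064 of 6390 with AL669918.1. How reads in these stretches were counted is not given, so the levels of PSMB10 and TAP2 are uncertain, and the effect on this order was not tested.

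**Figure D2:**
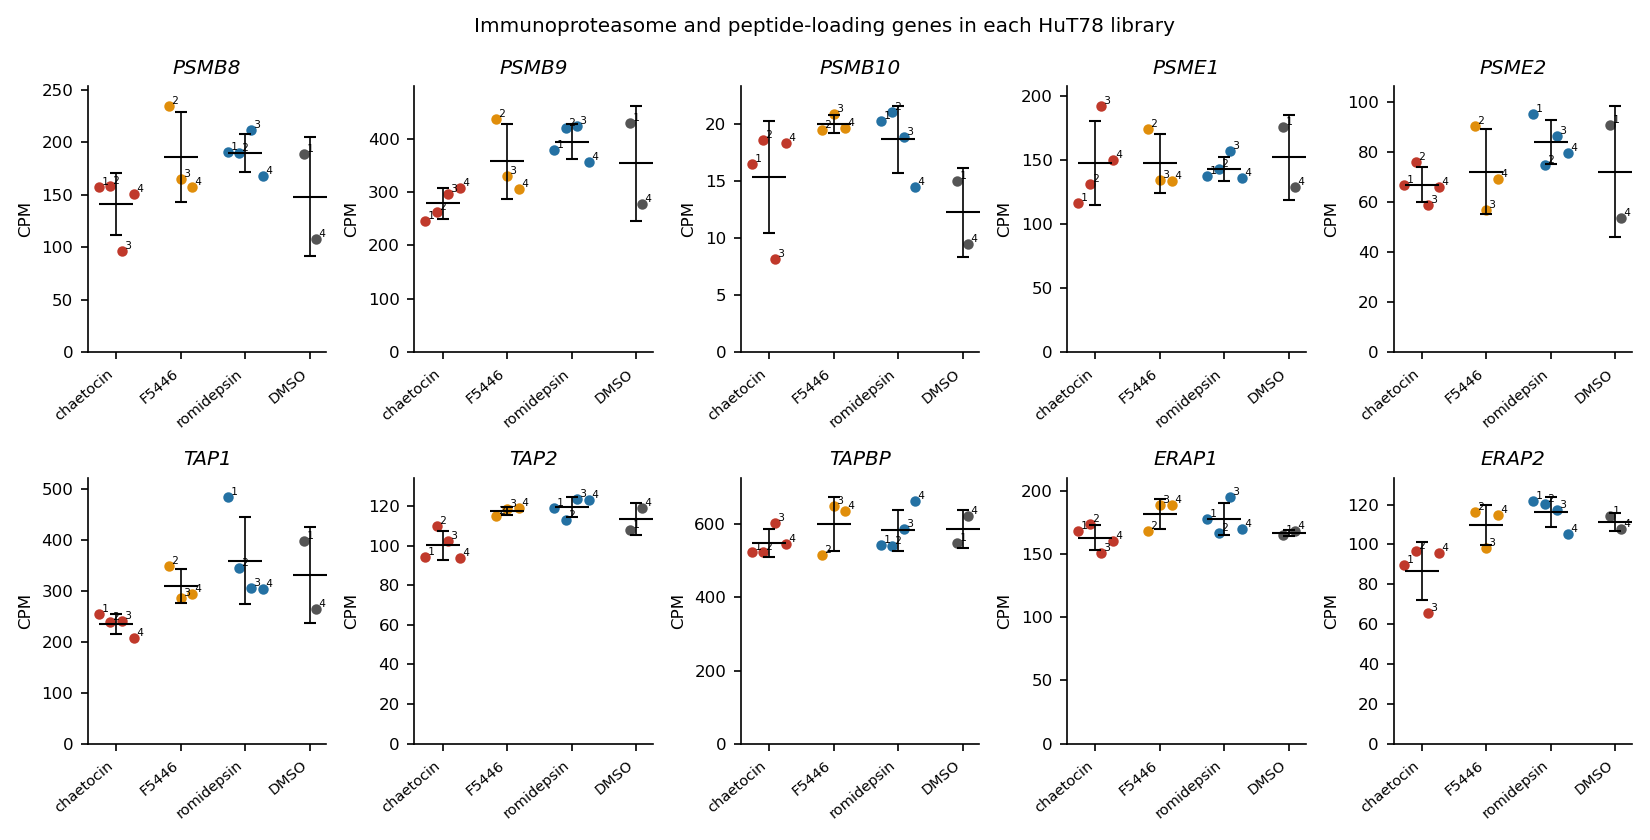
Level of each gene (CPM, linear axis from 0) in each of the 13 libraries, grouped by treatment. Points are libraries with their replicate numbers, the bar is the group mean and the whiskers are 1 SD. The romidepsin points of TAP1, PSMB9, PSMB8, TAP2 and ERAP2 all lie above the chaetocin points, while the points of PSME1 and TAPBP overlap.

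PSMB8, the chymotrypsin-like subunit that replaces PSMB5, had 157.7, 158.1, 96.8 and 150.9 CPM in chaetocin replicates 1 to 4. It had 234.8, 164.8 and 157.2 CPM in F5446 replicates 2, 3 and 4, and 190.8, 189.6, 211.2 and 167.7 CPM in romidepsin replicates 1 to 4. The DMSO libraries, replicates 1 and 4, had 188.7 and 107.9 CPM. Chaetocin replicate 3 was low, and the 2 vehicle libraries spanned most of the range of the treated ones. PSMB9, which replaces PSMB6, had 246.2, 262.7, 296.6 and 308.2 CPM with chaetocin. It had 436.9, 329.2 and 305.5 CPM with F5446 and 377.8, 419.3, 424.1 and 356.0 CPM with romidepsin, against 429.9 and 276.9 CPM with DMSO. Every romidepsin library was above every chaetocin library, and the vehicle libraries again lay on both sides. PSMB10, which replaces PSMB7, had 16.5, 18.6, 8.17 and 18.4 CPM with chaetocin. It had 19.5, 20.9 and 19.7 CPM with F5446 and 20.3, 21.0, 18.9 and 14.5 CPM with romidepsin, against 15.0 and 9.52 CPM with DMSO. The 3 F5446 libraries were close together and above both vehicle libraries. The strand setting of the counting is not given, and in GENCODE release 29 PSMB8 and PSMB9 share 139 exon bases on opposite strands and PSMB8-AS1 (3154 counts in all libraries) shares exon bases with PSMB8, PSMB9 and TAP1. Reads in these stretches could not be told apart.

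Whether the immunoproteasome subunits changed against their constitutive partners was read from the ratio of counts within each library, which needs no scaling between libraries. The PSMB8 to PSMB5 ratio was 4.38, 4.59, 2.19 and 4.17 with chaetocin, 8.02, 5.40 and 5.84 with F5446, 6.08, 6.11, 5.80 and 4.97 with romidepsin, and 5.21 and 3.18 with DMSO. Every chaetocin library lay below every F5446 and every romidepsin library. The log2 difference was -0.78 for chaetocin minus F5446 and 0.64 for romidepsin minus chaetocin, each with p = 0.0286 by a two-sided exact permutation test, the smallest p these group sizes allow. After Benjamini-Hochberg adjustment over the 18 exact permutation tests of 3 ratios in 6 comparisons, both were at 0.171.

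The PSMB9 to PSMB6 ratio was 2.22, 2.12, 1.91 and 2.67 with chaetocin, 3.39, 2.88 and 2.78 with F5446, 3.36, 4.86, 3.58 and 3.14 with romidepsin, and 3.36 and 2.56 with DMSO. The chaetocin libraries were again all below the F5446 and the romidepsin libraries. The log2 difference was 0.73 for romidepsin minus chaetocin (exact permutation p = 0.0286, adjusted p = 0.171) and -0.44 for chaetocin minus F5446 (exact permutation p = 0.0571, adjusted p = 0.257). The PSMB10 to PSMB7 ratio was far lower, at 0.0695, 0.0806, 0.0302 and 0.0794 with chaetocin, 0.0705, 0.0981 and 0.0985 with F5446, 0.0901, 0.0897, 0.0733 and 0.0669 with romidepsin, and 0.0564 and 0.0543 with DMSO. All F5446 and romidepsin values lay above the vehicle values. The part of the exon bases that PSMB10 shares with AC040162.1 in the low level of this ratio was not tested. The exact permutation p against DMSO was 0.2 for F5446 (adjusted p = 0.36) and 0.133 for romidepsin (adjusted p = 0.343). The smallest exact permutation p possible is 0.1 for F5446 against DMSO and 0.0667 for the other compounds against DMSO. None of the 18 tests passed the threshold of 0.05 after adjustment.

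**Figure D3:**
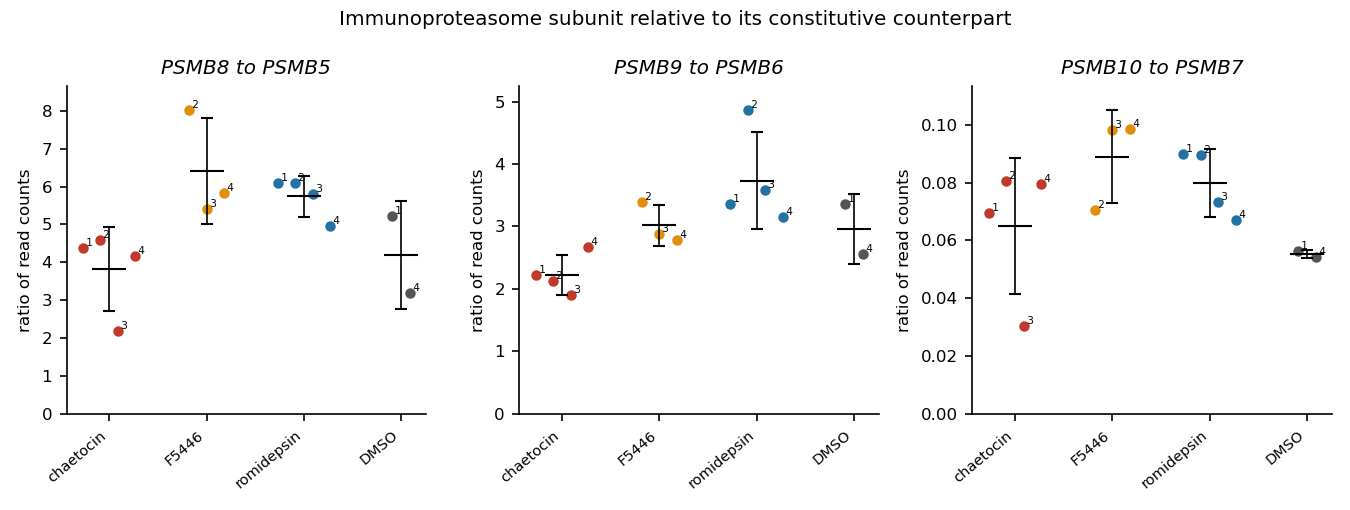
Ratio of read counts of each immunoproteasome subunit to its constitutive counterpart in each library (linear axes from 0, not scaled for gene length). Points are libraries with replicate numbers, bars are group means and whiskers 1 SD. Chaetocin points lie below all F5446 and romidepsin points for PSMB8 to PSMB5 and PSMB9 to PSMB6.

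The cap subunits of PA28 were less uniform. PSME1 averaged 147.7 ± 32.9 CPM with chaetocin (SD, n = 4), 147.6 ± 23.0 with F5446 (n = 3), 143.2 ± 9.48 with romidepsin (n = 4) and 152.1 ± 33.1 with DMSO (n = 2). Its highest value of all, 192.4 CPM, was in chaetocin replicate 3, the library in which PSMB8, PSMB10 and ERAP2 were lowest. PSME2 averaged 67.1 ± 7.08 CPM with chaetocin, 72.3 ± 17.1 with F5446, 84.2 ± 8.76 with romidepsin and 72.3 ± 26.4 with DMSO, with the same n. The groups of both genes overlapped in every comparison with DMSO.

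TAP1, a subunit of the peptide pump, had 255.0, 238.7, 240.6 and 207.7 CPM in chaetocin replicates 1 to 4. It had 348.0, 285.8 and 294.7 CPM with F5446 and 484.2, 345.0, 306.2 and 303.5 CPM with romidepsin, against 398.1 and 263.9 CPM with DMSO. All 4 chaetocin libraries were below every library of the other groups, and romidepsin replicate 1 was the highest. TAP2, its partner in the pump, had 94.4, 109.7, 102.4 and 93.9 CPM with chaetocin. It had 115.0, 118.5 and 119.1 CPM with F5446 and 118.8, 112.9, 123.4 and 123.1 CPM with romidepsin, against 107.9 and 119.2 CPM with DMSO. The chaetocin values were below all F5446 and romidepsin values and overlapped those of DMSO. TAPBP averaged 549.5 ± 38.1 CPM with chaetocin, 600.2 ± 74.1 with F5446, 583.5 ± 56.7 with romidepsin and 586.3 ± 52.2 with DMSO, and its groups overlapped in all 6 comparisons.

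Of the trimming peptidases, ERAP1 averaged 163.1 ± 10.0 CPM with chaetocin, 181.8 ± 12.03 with F5446, 177.5 ± 12.5 with romidepsin and 166.8 ± 2.52 with DMSO. ERAP1 shares 299 exon bases with the antisense gene CAST (44407 counts in all libraries), so some of its counts are uncertain. ERAP2 had 89.6, 96.6, 65.5 and 95.6 CPM in chaetocin replicates 1 to 4. It had 116.1, 98.2 and 114.7 CPM with F5446 and 121.7, 120.5, 117.5 and 105.4 CPM with romidepsin, against 114.3 and 108.0 CPM with DMSO. As with TAP1, every chaetocin library lay below every library of the other 3 groups.

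Against DMSO, chaetocin libraries had lower mean levels of 9 of the 10 genes. The largest differences were in TAP1, at 235.5 ± 19.9 CPM with chaetocin against 331.0 ± 94.9 CPM with DMSO (log2 fold change -0.49, 95% confidence interval -0.87 to -0.11), and in ERAP2, at 86.8 ± 14.5 against 111.1 ± 4.48 CPM (log2 fold change -0.36, interval -0.67 to -0.04). PSMB9 was at 278.4 ± 28.9 against 353.4 ± 108.2 CPM (log2 fold change -0.34, interval -0.70 to 0.01). PSMB10 went the other way, at 15.4 ± 4.91 against 12.3 ± 3.87 CPM (log2 fold change 0.33, interval -0.25 to 0.91).

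With edgeR's quasi-likelihood test and Benjamini-Hochberg adjustment, 0 of the 10 genes were called with chaetocin (adjusted p under 0.05), as were 0.0% of all genes, and DESeq2 (0.0522% of all genes) and limma-voom (0.0% of all genes) also called 0 of the 10. At an unadjusted p under 0.05, 2 were lower, TAP1 and ERAP2, against 1.91% of all genes, and both had an adjusted p of 1. The same genes were the 2 whose libraries lay wholly below those of DMSO, against 6.09% of all genes. The median log2 fold change of the 10 genes was -0.10, beside 0.01 over all genes. Leaving out DMSO replicate 1 gave -0.02, leaving out DMSO replicate 4 gave -0.32, and leaving out chaetocin replicate 3 gave -0.17. In bulk RNA, fewer expressing cells and less RNA per cell cannot be told apart. The set of replicates 1 and 2 gave a median of -0.28 and that of 3 and 4 gave 0.00. TAP1 gave -0.69 and -0.24 within these sets, while PSMB9 gave -0.76 and 0.13.

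With F5446 8 of the 10 genes had mean levels near those with DMSO, and PSMB10 and PSMB8 were further above theirs. PSMB10 was at 20.03 ± 0.790 CPM with F5446 (SD, n = 3) against 12.3 ± 3.87 CPM with DMSO (n = 2), a log2 fold change of 0.71 (interval 0.09 to 1.32, edgeR adjusted p = 1). PSMB8 was at 185.6 ± 42.8 against 148.3 ± 57.2 CPM (log2 fold change 0.32, interval -0.18 to 0.83). The other 8 genes had log2 fold changes between -0.10 for TAP1 and 0.12 for ERAP1. By edgeR 0 of the 10 genes were called, beside 0.0% of all genes, 0 by DESeq2, beside 0.0058%, and 0 by limma-voom, beside 0.0%. PSMB10 was the only gene of the 10 with an unadjusted edgeR p under 0.05, a share to set beside 1.51% of all genes for higher values. It was also the only gene whose libraries lay wholly above those of DMSO, beside 9.44% of all genes. The median was 0.02, beside 0.01 over all genes, and 0.20 without DMSO replicate 1 and -0.04 without DMSO replicate 4. Within replicate numbers 1 and 2 it was 0.02 and within 3 and 4 it was 0.15.

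With romidepsin 8 of the 10 genes had mean levels above those with DMSO, by small amounts. PSMB10 was again the furthest, at 18.7 ± 2.94 CPM with romidepsin (SD, n = 4) against 12.3 ± 3.87 CPM with DMSO (n = 2), a log2 fold change of 0.61 (interval 0.02 to 1.19, edgeR adjusted p = 1). PSMB8 was at 189.8 ± 17.8 against 148.3 ± 57.2 CPM (log2 fold change 0.36, interval -0.12 to 0.83), and TAP1 at 359.7 ± 85.1 against 331.0 ± 94.9 CPM (0.12, interval -0.27 to 0.51). By edgeR 0 of the 10 were called, beside 0.0% of all genes, 0 by DESeq2, beside 0.0058%, and 0 by limma-voom, beside 0.0%. PSMB10 alone had an unadjusted edgeR p under 0.05, beside 1.82% of all genes for higher values. In none of the 10 did the libraries lie wholly above those of DMSO, beside 5.34% of all genes. The median was 0.10, beside 0.01 over all genes, 0.30 without DMSO replicate 1 and 0.02 without DMSO replicate 4. Within replicate numbers 1 and 2 it was 0.02 and within 3 and 4 it was 0.19. The comparisons of the compounds with DMSO share its 2 libraries. Likewise, all comparisons that include chaetocin share its 4 libraries, so their results are not independent of each other.

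**Figure D4:**
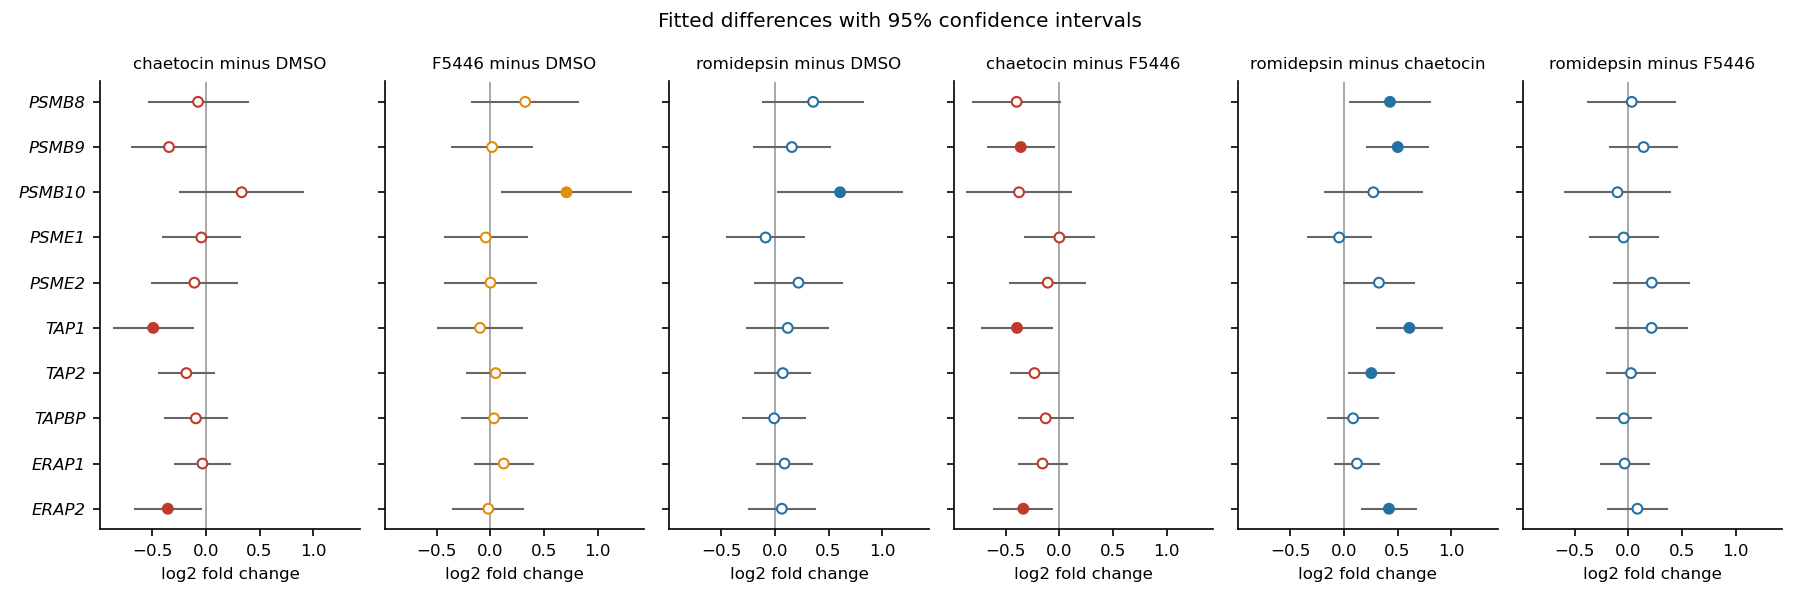
Log2 fold change of each gene in the 6 comparisons from the edgeR fit, with 95% confidence intervals as bars and 0 as the vertical line. Filled points have an unadjusted p under 0.05 and open points do not, and none passed adjustment over all genes. In chaetocin minus F5446 9 of 10 points lie left of 0, and in romidepsin minus chaetocin 9 of 10 lie right of it, with TAP1 the furthest at 0.61.

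Between chaetocin and F5446, given at the same dose, 9 of the 10 genes had a lower mean with chaetocin. ERAP2 averaged 86.8 ± 14.5 CPM with chaetocin (SD, n = 4) against 109.6 ± 9.97 CPM with F5446 (n = 3), a log2 fold change of -0.34 (interval -0.62 to -0.06). TAP1 was at 235.5 ± 19.9 against 309.5 ± 33.7 CPM, a log2 fold change of -0.39 (interval -0.73 to -0.06). PSMB9 was at 278.4 ± 28.9 against 357.2 ± 70.0 CPM, a log2 fold change of -0.36 (interval -0.68 to -0.04). TAP2 (-0.23, interval -0.46 to 0.00) and PSMB8 (-0.40, interval -0.81 to 0.02) had intervals that reached 0, and PSME1 gave 0.00 (interval -0.33 to 0.33).

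None of the 10 genes was called between chaetocin and F5446 by edgeR, where each had an adjusted p of at least 0.9995, beside 0.0% of all genes, by DESeq2, beside 0.0116%, or by limma-voom, beside 0.0%. At an unadjusted edgeR p under 0.05, 3 of 10 were lower with chaetocin, beside 1.97% of all genes. The libraries did not overlap, with chaetocin lower, for ERAP2, TAP1, TAP2 and PSMB10, 4 of 10, beside 3.11% of all genes. The median was -0.28, beside 0.00 over all genes, and -0.19 without chaetocin replicate 3. Within replicate numbers 1 and 2, which hold a single F5446 library, it was -0.33, and within 3 and 4 it was -0.28. TAP1 gave -0.50 and -0.38 in these sets, but PSMB9 gave -0.78 and -0.07.

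The widest separation was between romidepsin and chaetocin, which were given at different doses. TAP1 was at 359.7 ± 85.1 CPM with romidepsin and 235.5 ± 19.9 CPM with chaetocin (SD, n = 4 each), a log2 fold change of 0.61 (interval 0.30 to 0.93, edgeR adjusted p = 0.199), which ranked 50 by p among all genes. PSMB9 was at 394.3 ± 32.9 against 278.4 ± 28.9 CPM, a log2 fold change of 0.50 (interval 0.21 to 0.80, edgeR adjusted p = 0.337). ERAP2 was at 116.3 ± 7.46 against 86.8 ± 14.5 CPM, a log2 fold change of 0.42 (interval 0.16 to 0.68, edgeR adjusted p = 0.390). PSMB8 (0.43, interval 0.04 to 0.82) and TAP2 (0.26, interval 0.04 to 0.47) followed, with edgeR adjusted p-values of 0.900 and 0.861. PSME2 (0.33), PSMB10 (0.27), ERAP1 (0.12) and TAPBP (0.09) had positive values whose intervals held 0, and PSME1 was at -0.04 (interval -0.35 to 0.26).

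None of the 10 genes was called in this comparison by edgeR, DESeq2 or limma-voom, beside 0.0927%, 0.348% and 0.0869% of all genes. At an unadjusted edgeR p under 0.05, 5 of 10 were higher with romidepsin, beside 3.37% of all genes. The same 5 genes, TAP1, PSMB9, ERAP2, PSMB8 and TAP2, were those whose romidepsin libraries lay wholly above the chaetocin libraries, beside 2.24% of all genes. The median was 0.30, beside -0.01 over all genes, and 0.26 without chaetocin replicate 3. Without that library TAP1 gave 0.62 and PSMB9 0.53, while PSMB8 gave 0.28, ERAP2 0.30 and PSMB10 0.06, and PSME1 turned to 0.10. In the set of replicates 1 and 2 the median was 0.24, with 10 of 10 genes above 0, and in that of 3 and 4 it was 0.39, with 9 of 10. TAP1 gave 0.73 and 0.45, PSMB9 0.65 and 0.36, ERAP2 0.38 and 0.49, and PSMB8 0.27 and 0.64 in these sets. Without the filter on low counts TAP1 and PSMB9 were called by edgeR (adjusted p = 0.00274 and 0.0482). With a term for the replicate sets TAP1 was called (edgeR adjusted p = 0.00238). With a replicate block TAP1 and ERAP2 were called (edgeR adjusted p = 0.000473 and 0.0283). Over all 20 alternatives the edgeR, DESeq2 or limma-voom adjusted p ran from 0.000473 to 0.727 for TAP1, from 0.0482 to 0.924 for PSMB9 and from 0.0283 to 0.949 for ERAP2.

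Between romidepsin and F5446, also at different doses, the log2 fold changes of the 10 genes ran from -0.10 in PSMB10 to 0.22 in PSME2 and TAP1 (TAP1 interval -0.12 to 0.56), with a median of 0.03 beside 0.00 over all genes. None was called by edgeR, DESeq2 or limma-voom, each beside 0.0% of all genes. At an unadjusted edgeR p under 0.05 there were 0 of the 10, beside 2.46% of all genes. In 0 of the 10 did the libraries lie wholly above or wholly below those of F5446, beside 2.56% and 2.1% of all genes. The intervals still allow differences of up to about 0.58 for PSME2 and 0.46 for PSMB9 on the log2 scale.

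The genes around these 10 in the same pathway were read from 6 lists of 70 genes, 69 of which were tested (NRD1, an older symbol of NRDC, is not a row of the count table). Between romidepsin and chaetocin 9 of the 10 genes for class I chains and other loading factors had positive log2 fold changes. Their median was 0.41, beside -0.01 over all genes, and 0 were called. At an unadjusted edgeR p under 0.05, 5 were higher with romidepsin, beside 3.37% of all genes. HLA-B, a class I heavy chain, was at 700.4 ± 92.0 CPM with romidepsin and 442.5 ± 121.2 CPM with chaetocin (SD, n = 4 each), a log2 fold change of 0.66 (edgeR adjusted p = 0.172). The light chain B2M was at 1513 ± 295.5 and 1005 ± 195.7 CPM, a log2 fold change of 0.59 (edgeR adjusted p = 0.299). Heavy-chain genes are alike in sequence, and reads could be split between them.

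Most of the listed proteasome genes outside the immunoproteasome lay on the other side of 0 in that comparison. None of them had an unadjusted edgeR p under 0.05. All 16 genes for other core subunits and assembly factors had negative log2 fold changes between romidepsin and chaetocin (median -0.13, with POMP, the maturation protein of the core, at -0.25), and so did the 3 constitutive catalytic subunits (median -0.19). PSMB5 was at 33.1 ± 2.48 CPM with romidepsin and 37.7 ± 4.395 CPM with chaetocin, PSMB6 at 107.6 ± 14.5 and 126.5 ± 20.1 CPM, and PSMB7 at 233.6 ± 17.6 and 242.4 ± 18.8 CPM. Of 21 genes for the 19S regulator and other activators 16 were below 0 (median -0.09), and PSMD7, a lid subunit, had the smallest p there (log2 fold change 0.19). The 7 cytosolic and vesicular peptidases had a median of 0.03, with LNPEP, which trims peptides in endosomes, at 276.7 ± 19.4 CPM with romidepsin and 218.5 ± 36.3 CPM with chaetocin. In the lists of core, assembly, 19S regulator and peptidase genes edgeR called 0 genes. Every log2 fold change of a listed proteasome gene outside the 10 lay between -0.28 and 0.19. These lists were not tested as sets.

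Upstream regulators of these genes were examined in the same comparison. Of the 12 listed, 8 had positive and 4 negative log2 fold changes, with a median of 0.04. At an unadjusted edgeR p under 0.05, 4 were higher with romidepsin, beside 3.37% of all genes, and 1 was lower. After adjustment edgeR called 1 of the 12, beside 0.0927% of all genes, and that item is not reported here. NLRC5, the class I transactivator, was at 26.3 ± 2.55 CPM with romidepsin and 17.9 ± 3.21 CPM with chaetocin (SD, n = 4 each; log2 fold change 0.55, edgeR adjusted p = 0.370), and IRF1 at 131.2 ± 34.6 and 101.0 ± 10.5 CPM (0.38, edgeR adjusted p = 0.900).

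In the comparison of chaetocin with F5446 the class I list had a median of -0.38 with 8 of 10 genes below 0 and 0 called by edgeR. B2M averaged 1005 ± 195.7 CPM with chaetocin (SD, n = 4) and 1586 ± 342.3 CPM with F5446 (n = 3). The constitutive subunit PSMB5 was at 37.7 ± 4.395 and 28.9 ± 1.84 CPM, a log2 fold change of 0.38 (interval 0.08 to 0.68, edgeR adjusted p = 0.9995), so its mean lay on the other side from that of PSMB8. IRF8, an interferon regulatory factor, was at 1.88 ± 0.635 and 0.442 ± 0.00391 CPM, low in both groups. Against DMSO, chaetocin gave a median of -0.36 in the class I list, with HLA-B at 442.5 ± 121.2 CPM with chaetocin and 620.5 ± 21.5 CPM with DMSO, and 0 called. In the same comparison 14 of 16 other core and assembly genes had positive values (median 0.19, PSMB3 at 0.32), as did 17 of 21 regulator genes (median 0.15, PSMD11 at 0.28). NLRC5 was at 17.9 ± 3.21 CPM with chaetocin and 24.8 ± 0.296 CPM with DMSO (log2 fold change -0.47, edgeR adjusted p = 1).

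For F5446 and romidepsin against DMSO the surrounding lists lay near 0. With F5446 the medians were 0.04 for the class I list, 0.06 for other core and assembly genes and -0.02 for the 19S regulator, and the smallest p in each list belonged to TAPBPL, PSMB3 and PSMD12 in that order. With romidepsin they were 0.05, 0.01 and 0.10, and the smallest p belonged to B2M, PSMB3 and PSMD3. The peptidases gave -0.09 with F5446, where NPEPPS, a cytosolic aminopeptidase, was at 56.8 ± 7.20 CPM with F5446 and 75.3 ± 6.70 CPM with DMSO, and -0.03 with romidepsin. By edgeR 0 genes of these lists were called in either comparison.

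Across libraries the 10 genes did not vary as a single block. Of the 45 pairs, 34 had a positive correlation of log2 CPM over the 13 libraries and 19 had one of at least 0.5, with a median of 0.36. The closest pairs were PSMB8 with PSMB10 (0.82) and PSMB8 with PSME2 (0.81), and TAP1 with PSMB9, its divergent neighbour, gave 0.72. The libraries share scaling and treatment groups, so these values are a description. The median correlation of a gene with the other 9 was 0.60 for PSMB8, 0.59 for ERAP2, 0.54 for PSMB9 and 0.51 for TAP1, against -0.08 for PSME1 and -0.12 for TAPBP. Without chaetocin replicate 3 the value of PSME1 was 0.40, while that of TAPBP was -0.11. Among pairs, PSMB8 with PSMB10 then fell to 0.68 and PSMB8 with PSME2 stayed at 0.82. PSMB9 with PSME1, at 0.54 over the 13 libraries, became the closest pair at 0.82. With the means of the replicate sets removed, 37 of 45 pairs were positive and the median was 0.47.

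**Figure D5:**
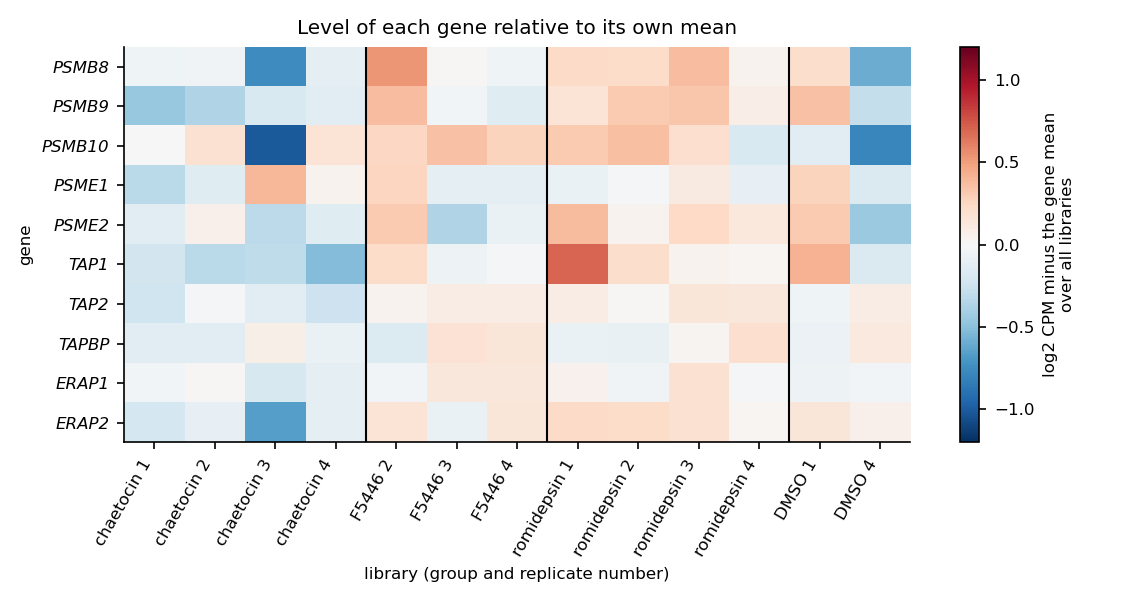
Log2 CPM of each gene minus its own mean over the 13 libraries (colour, blue lower and red higher), with genes in rows and libraries in columns grouped by treatment. The chaetocin columns are mostly blue, with replicate 3 the darkest for PSMB8, PSMB10 and ERAP2 but red for PSME1, and DMSO replicates 1 and 4 differ from each other.

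The mean of the 10 standardised genes put the chaetocin libraries at -0.84, -0.39, -1.02 and -0.62 SD, in replicates 1 to 4. The F5446 libraries were at 0.58, 0.17 and 0.27, and the romidepsin libraries at 0.65, 0.31, 0.80 and 0.26. The vehicle libraries were at 0.43 (replicate 1) and -0.60 (replicate 4), so the vehicle group alone spanned most of the distance between the chaetocin and romidepsin groups. Among 10086 other genes that averaged 5 CPM or more, those most like this mean over the 13 libraries were OTULINL (r = 0.92), FAM107B (0.90), CYSLTR1 (0.89), GBP5 (0.88) and BLVRA (0.86). With the means of the replicate sets removed, CYSLTR1 (0.93), OTULINL (0.92) and BLVRA (0.90) were still among the 5 most alike. B2M stood at 0.83 and in place 17 of that order, NLRC5 at 0.73 and IRF1 at 0.34. The constitutive subunits gave -0.58 (PSMB5), -0.26 (PSMB6) and 0.16 (PSMB7).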

How the data were processed

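RNA from HuT78 cells was sequenced in 13 libraries of 4 groups. Per the submitters' processing notes, bcl2fastq 2.20.0.422, cutadapt 1.8.1 and HTSeq 0.6.1 were used with hg19. How reads were aligned, whether counting used strand and which gene models were taken were not given in the sources used here. The authors deposited raw read counts for 45744 genes, with a column for each library. The treatment tags of the F5446 libraries end in different digits, but their titles all give F5446, and the titles were used.

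edgeR 4.0.16 (R 4.3.3) was fitted to all 13 libraries with group as the only term, after its filter for low counts (17252 genes left), with TMM scaling and its robust quasi-likelihood test, two-sided and adjusted by the Benjamini-Hochberg method over all genes tested within a comparison, at 0.05. Ratios of subunits were compared by exact permutation tests. Log2 CPM for correlations used a prior count of 2. Library totals ran from 19901052 to 30816188 counts, and the 95% intervals hold spread between libraries and counting error together. Alternatives were DESeq2 1.42.0, limma-voom (limma 3.58.1), RLE size factors, no filter, a replicate block, a set term (replicates 1 and 2 or replicates 3 and 4), a fit of the 2 groups compared, and the omission of single libraries in turn. Where this left 1 DMSO library, its spread was taken to be that of the other groups. The genes named are the 10 members, PSMB5, PSMB6, PSMB7, B2M, NLRC5 and IRF1, the gene with the smallest p of each list in each comparison, called genes and the 5 most similar genes, together with cell type markers and overlapping genes. Some items of the lists are not reported here. The members and lists were chosen with earlier results of these data known. The fit was tested on simulated data. Promoter windows came from RefSeq (GRCh38.p14). Python 3.11.15 and matplotlib 3.10.9 were used for ratios, motifs and figures.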

Additional observations from a re-analysis of the deposited data

Results flagged for a closer look

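PSMB8 in chaetocin replicate 3 stood apart from the rest of its group, at 96.8 CPM where the other chaetocin libraries lay between 150.9 and 158.1 CPM. Its gap to the next library was 0.882 of the range of the 4 libraries. Of 26 groups examined in this way it was the only such value, and chance alone marks about 1 group in 20. The library also had the highest share of mitochondrially encoded counts (15.9%), whose part in this value was not tested.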

How the results depend on the processing

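In 5 of the 6 comparisons edgeR called 0 of the 10 genes, as did every alternative. Between romidepsin and chaetocin, where 0 were called, 2 were called without a filter (TAP1 and PSMB9), 2 with the replicate block (TAP1, adjusted p = 0.000473, and ERAP2, 0.0283) and 1 with the term for the replicate sets (TAP1); the cause was not tested. In the same comparison 16 of all genes were called, against 60 by DESeq2, 72 without a filter, 144 with the replicate block, 108 with the set term and 7 in the fit of the 2 groups. Same-numbered libraries had correlated deviations of 0.0362 to 0.222, all positive. In no comparison with at least 3 pairs were all over 0.1, and the main fit does not pair the numbers. The labels do not say whether the numbers mark pairs, so the results with the replicate block are given beside it. Every library correlated best with its own number in chaetocin minus F5446 and in the comparisons with DMSO, which hold fewer pairs. The only exceptions were replicate 3 in romidepsin minus chaetocin and replicate 4 in romidepsin minus F5446. Deviations of the 2 DMSO libraries from their mean mirror each other, so a best match there adds nothing beyond a positive correlation.

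Some differences changed sign, and the cause was not tested. PSME2 for F5446 minus DMSO was -0.011 with DESeq2 or RLE factors and -0.0071 in the fit of the 2 groups. With the replicate block PSMB9, TAP1 and ERAP2 were at -0.049, 0.087 and 0.041 for F5446 minus DMSO, TAPBP at 0.00095 for romidepsin minus DMSO and PSMB8 at -0.0026 for romidepsin minus F5446. With the set term TAPBP and ERAP2 were at -0.0039 and 0.0031 for F5446 minus DMSO, and with limma-voom PSME1 was at -0.021 for chaetocin minus F5446. The PSMB10 to PSMB7 log2 ratio was -0.15 within numbers 3 and 4 for chaetocin minus DMSO, and within numbers 1 and 2 it was 0.085 for chaetocin minus F5446 (-0.54 over all libraries) and 0.35 for romidepsin minus F5446.

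With each library left out in turn, the sign changed in the ranges that follow. For chaetocin minus DMSO, PSMB8 ran from -0.42 to 0.39, PSMB9 from -0.63 to 0.011, PSME1 from -0.25 to 0.20, PSME2 from -0.44 to 0.33, TAPBP from -0.18 to 0.00040, ERAP1 from -0.064 to 0.0047, the PSMB8 to PSMB5 ratio from -0.50 to 0.21 and the PSMB10 to PSMB7 ratio from -0.0082 to 0.46. For F5446 minus DMSO, PSMB8 ran from -0.022 to 0.77, PSMB9 from -0.27 to 0.36, PSME1 from -0.25 to 0.19, PSME2 from -0.33 to 0.42, TAP1 from -0.36 to 0.22, TAP2 from -0.030 to 0.12, TAPBP from -0.064 to 0.13, ERAP2 from -0.063 to 0.054 and the PSMB9 to PSMB6 ratio from -0.16 to 0.23. For romidepsin minus DMSO, PSMB9 ran from -0.12 to 0.51, PSME1 from -0.29 to 0.15, PSME2 from -0.11 to 0.65, TAP1 from -0.15 to 0.45 and TAPBP from -0.095 to 0.087. For chaetocin minus F5446, PSME1 ran from -0.15 to 0.14 and PSME2 from -0.25 to 0.089. For romidepsin minus chaetocin, PSME1 ran from -0.14 to 0.10. For romidepsin minus F5446, PSMB8 ran from -0.074 to 0.24, PSMB10 from -0.16 to 0.0077, PSME1 from -0.11 to 0.093, TAPBP from -0.14 to 0.020 and the PSMB8 to PSMB5 ratio from -0.26 to 0.027.

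The DMSO group holds only 2 libraries, and this number limits the precision of every comparison with the vehicle. These libraries differ from each other in most of the 10 genes, but the edgeR fit took its spread from all 13 libraries. Each of the 10 genes had at least 164 counts in every library.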
